A study of Sus scrofa with 20 samples.

Results

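Skin of the pig's snout was compared with skin of its flank in 10 of the 20 RNA-seq libraries of this series, 5 of each site. The libraries come from 5 female wild-type Yorkshire pigs, named here by their age of 4, 5, 6, 7 or 8 months. A 4 mm punch was taken at the snout, the flank, and the volar and dorsal foot of each animal. The labels list no allele and no treatment, all groups share breed and sex, and where on the snout or flank the punch lay is not given. The 12 libraries of the 4-, 7- and 8-month pigs are called the first set here and the 8 of the 5- and 6-month pigs the second set. In the first set, snout and flank were taken from the labels. In the second set the libraries were grouped by expression: those labelled volar were placed with snout and those labelled dorsal with flank. The 10 libraries held 34077861 to 66906489 estimated counts each, and 14493 to 15024 genes reached 10 counts.

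The regrouping rests on these values. Over the 2000 most variable genes, centred within each set, the library labelled volar of the 6-month pig correlated with the first-set snout mean at r = 0.83 and with the first-set volar mean at 0.00. For the 5-month pig these were 0.78 and 0.04. The libraries labelled dorsal correlated with the first-set flank mean at 0.81 (6 months) and 0.84 (5 months), and with the first-set dorsal mean at 0.75 and 0.63, a narrower margin. The libraries are in 1 table and share a gene set, so these r are descriptions. Because expression placed 4 of the 10 libraries, everything said of 5 against 5 libraries is a description without a test. The test was edgeR's quasi-likelihood F test in the first set, where the labels alone set the groups (3 snout against 3 flank libraries, with the 6 foot libraries sharing the estimate of spread and 8 residual degrees of freedom).

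In pigs the front of the snout is a thick, sparsely haired tactile pad with its own glands, lying over cartilage, bone and facial muscle, whereas the flank is hairy trunk skin over a fat layer. Dermal fibroblasts keep a record of body position in HOX transcription factors, which are used along the trunk and limbs, while facial mesenchyme from the cranial neural crest forms without most HOX genes and uses factors of the ALX, MSX, DLX and PAX families. Surface epithelia differ in their keratins: dry epidermis makes KRT1, KRT2 and KRT10, and epithelia exposed to wear or moisture make other pairs.

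Skeletal muscle RNA was high in 3 of the 5 snout libraries. The summed level of the 39 skeletal muscle genes in the table was 58.3 CPM (counts scaled to library size, with TMM factors) in the 4-month and 64.9 CPM in the 8-month snout library, and 8220, 13600 and 17200 CPM in those of the 5-, 6- and 7-month pigs. Flank libraries held 79.1 to 117 CPM. Of these 3, those of the 5- and 6-month pigs are labelled volar and that of the 7-month pig is in the tested set. Leaving out the muscle list left the correlations above at 0.83 and 0.78 with snout, and leaving out all 159 genes that were at least 4 times higher in the 3 muscle-carrying libraries gave 0.88 and 0.78. List counts are therefore also given with the 7-month snout library left out.

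Of 15302 genes tested in the first set, 2024 (13.2%) passed at an adjusted p under 0.05. Of all genes tested, 7.77% (1189 genes) were higher and 5.46% (835 genes) lower in snout, and the median log2 fold change was -0.03. With upper-quartile scaling the median moved to -0.08 and the split to 976 higher and 961 lower. Over the 10 libraries, the lowest snout value lay above the highest flank value for 9.59% of 14956 genes and the reverse held for 7.36%. Of the first-set calls, 1132 of 1189 higher genes (95.2%) and 794 of 835 lower genes (95.1%) had the same sign in both second-set pigs. Those libraries were placed by their likeness to first-set snout and flank. The shared sign therefore follows in part from the placement and is no replication of the calls. The percentages over all genes are the background for the list counts below, and each list was read in the first-set test unless stated. List counts under another setting have that setting's own background. Without the 7-month snout library, 853 genes were higher and 555 lower of 15479 tested. DESeq2 gave 1659 and 1376 of 15160, limma-voom 1238 and 858 of 15302, and the pig as block 1513 and 1087 of 15302. In punches of whole skin, fewer cells of a type and less RNA per cell cannot be told apart.

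The 5 marker genes that came with the grouping separated the sites in every pig. In order of age (4, 5, 6, 7 and 8 months, an order used for every series of 5 values), KRT24 (ENSSSCG00000017465), a type I keratin, stood at 18800, 16400, 15300, 10500 and 13500 CPM in snout and at 1.03, 0.134, 0, 0.232 and 0.0993 CPM in flank. TMPRSS11D (ENSSSCG00000008926), an airway-type surface serine protease, had 152, 151, 146, 130 and 121 CPM in snout against at most 0.0505 CPM in flank. No flank library came near a snout library for either gene. ALX1 (ENSSSCG00000036744), a homeobox factor of the frontonasal mesenchyme, lay between 20 and 21.3 CPM in all 5 snout libraries and between 0 and 0.171 CPM in flank. HOXC8 (ENSSSCG00000038644), a trunk-level HOX gene, went the other way, with 9.09, 16.2, 15.8, 10.2 and 10 CPM in flank and 0 in all snout libraries but that of the 5-month pig (0.016 CPM). KRT2 (ENSSSCG00000037806), a keratin of the upper epidermis, had 1340, 2410, 2320, 6350 and 1100 CPM in flank and 2.66 to 9.68 CPM in snout.

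These markers helped to define the 5 against 5 groups, so their differences are given without a test: 14.28 ± 0.56 (SD, n = 5 pigs) on the log2(CPM + 0.5) scale for KRT24, 8.07 ± 0.16 for TMPRSS11D, 5.24 ± 0.19 for ALX1, -4.62 ± 0.37 for HOXC8 and -8.40 ± 0.93 for KRT2. In the 4- and 8-month pigs alone, whose snout libraries had muscle sums below those of flank, they were 14.02, 8.02, 5.37, -4.33 and -7.78. In the other 10 libraries KRT24 reached at most 1.04 CPM, TMPRSS11D 0.144 CPM and ALX1 0.425 CPM. The second-set libraries labelled snout were among them, with KRT24 at 0.0447 CPM (6 months) and 0.27 CPM (5 months). KRT2 did not set the matched flank libraries apart from these other 10, where it spanned 29.5 CPM (6 months, labelled flank) to 4340 CPM. HOXC8 was at 0.653 to 4.83 CPM in the other 10.

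**Figure D1:**
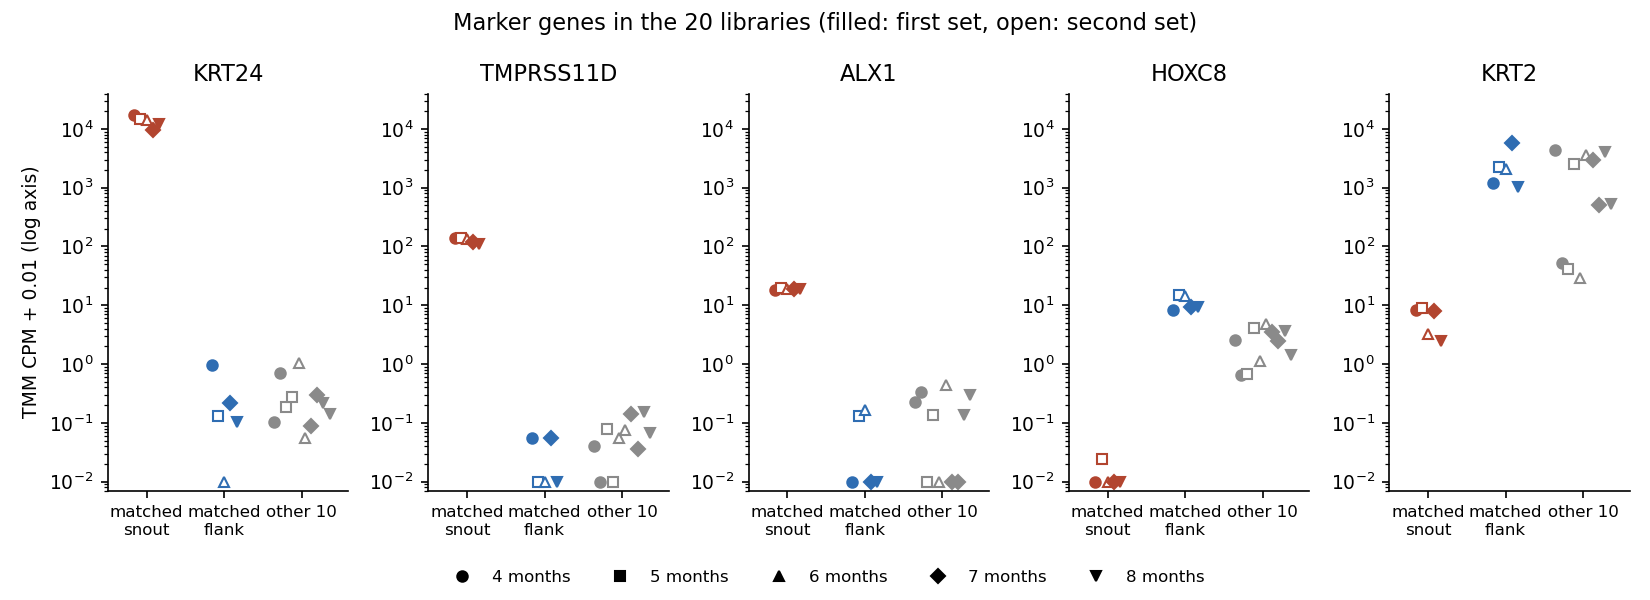
Each panel plots 1 marker as TMM CPM plus 0.01 on a log axis, with 1 point per library of the 20 (shape: pig age, filled: first set, open: second set). KRT24, TMPRSS11D and ALX1 were high in the 5 matched snout libraries alone, HOXC8 was at or near 0 there, and KRT2 was lowest there.

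Among genes with a symbol, the largest differences in the first set included keratins and surface proteases on the snout side and HOX genes and keratins on the flank side. Genes without a symbol were not named, although 2 of them had the largest values on the snout side: ENSSSCG00000012095 (17.25 ± 3.05, adjusted p = 0.00494; first-set means of 8930 CPM in snout and 0.0496 CPM in flank) and ENSSSCG00000006592 (15.44 ± 1.87, adjusted p = 0.000621; 2820 and 0.0552 CPM). The first overlapped between the sites over the 10 libraries and the second did not. On the flank side the largest without a symbol were ENSSSCG00000031778 (-13.40 ± 2.19, adjusted p = 0.0116; 0 CPM in snout and 25.7 CPM in flank) and ENSSSCG00000003754 (-9.95 ± 1.38, adjusted p = 0.00269; 0.0386 and 41.3 CPM). Neither of these overlapped. KRT3 (ENSSSCG00000023254), known as the keratin of the cornea, had 33000, 20300, 25200, 24500 and 30800 CPM in snout and 1.51, 11.1, 1.14, 5.34 and 3.03 CPM in flank, a first-set log2 fold change of 13.11 ± 1.47 (SE; adjusted p = 0.000423). The lowest snout library was thus far above the highest flank library. KRT24 changed by 15.02 ± 1.05 (adjusted p = 2.81e-05) and TMPRSS11D by 11.95 ± 0.56 (4.70e-06). The markers came with the grouping, so first-set p-values given for them here and below are no independent support. Salmon divides reads that match several similar genes between them, so the values of close paralogs, keratins above all, carry that uncertainty.

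Further genes were far higher in snout. COMP, a cartilage and tendon matrix protein, had 71.4, 61.2, 57.2, 75.5 and 66 CPM in snout and 0.202 to 0.657 CPM in flank (log2 fold change 7.84 ± 0.89, adjusted p = 0.000449). ANGPTL7, a secreted angiopoietin-like protein, had 438 CPM in the 4-month snout library and 66.2 to 112 CPM in the others, against 0.191 to 0.811 CPM in flank (8.15 ± 1.85, adjusted p = 0.017). Snout and flank did not overlap, but its call was lost whichever first-set flank library was left out (highest adjusted p 0.0639). CP, the copper-carrying ferroxidase ceruloplasmin, had 2.24, 1.87, 19.5, 144 and 83 CPM in snout and 0.457 to 0.732 CPM in flank (6.85 ± 1.18, adjusted p = 0.00425), so that its snout level differed widely between pigs. It lost its call with limma-voom and with 6 libraries only (adjusted p up to 0.181). MYL11, a fast skeletal muscle myosin light chain, had 506, 902 and 1020 CPM in the 3 muscle-carrying snout libraries and 0.227 and 0.132 CPM in the other 2; its call (12.69 ± 3.32, adjusted p = 0.031) was lost without the 7-month snout library and without any 1 flank library. Here and below, the bracket after a lost call gives the highest adjusted p over all alternatives within the first set (for MYL11, up to 0.532). Some further calls lost with 6 libraries only are listed in the section on how results depend on the processing.

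On the flank side, several genes had no count in the first-set snout libraries, so their folds are lower bounds set with 3 counts over the 3 snout libraries. TDO2, which starts tryptophan breakdown, had 1.16, 19.3, 39.6, 49 and 48.2 CPM in flank and 0 in all 5 snout libraries, at least 2170-fold lower in snout (adjusted p = 0.0133; 0.117 at most among the alternatives, lost with limma-voom and with only 6 libraries). SULT1C4, a sulfotransferase, had 1.34, 29.8, 45.1, 39.2 and 24.7 CPM in flank and at most 0.0295 CPM in snout (-11.40 ± 1.64, adjusted p = 0.00323; 0.0748 with limma-voom). In both genes the 4-month flank library was far below the other 4. CPHL1, a ceruloplasmin and hephaestin relative, had 33.2, 493, 2480, 910 and 1790 CPM in flank and 0 to 0.622 CPM in snout (-13.95 ± 1.88, adjusted p = 0.00117; 0.161 with limma-voom). FIBCD1, a chitin-binding receptor, was at 10.4 to 20.2 CPM in flank and at most 0.0303 CPM in snout (-9.25 ± 0.59, adjusted p = 5.03e-05). GLYATL2, a glycine acyltransferase, had 1.51, 0.287, 101, 76.5 and 50.5 CPM in flank and 0 to 0.649 CPM in snout, and the groups overlapped through the 5-month flank library (-7.31 ± 1.22, adjusted p = 0.00371; lost with limma-voom, up to 0.149).

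**Figure D2:**
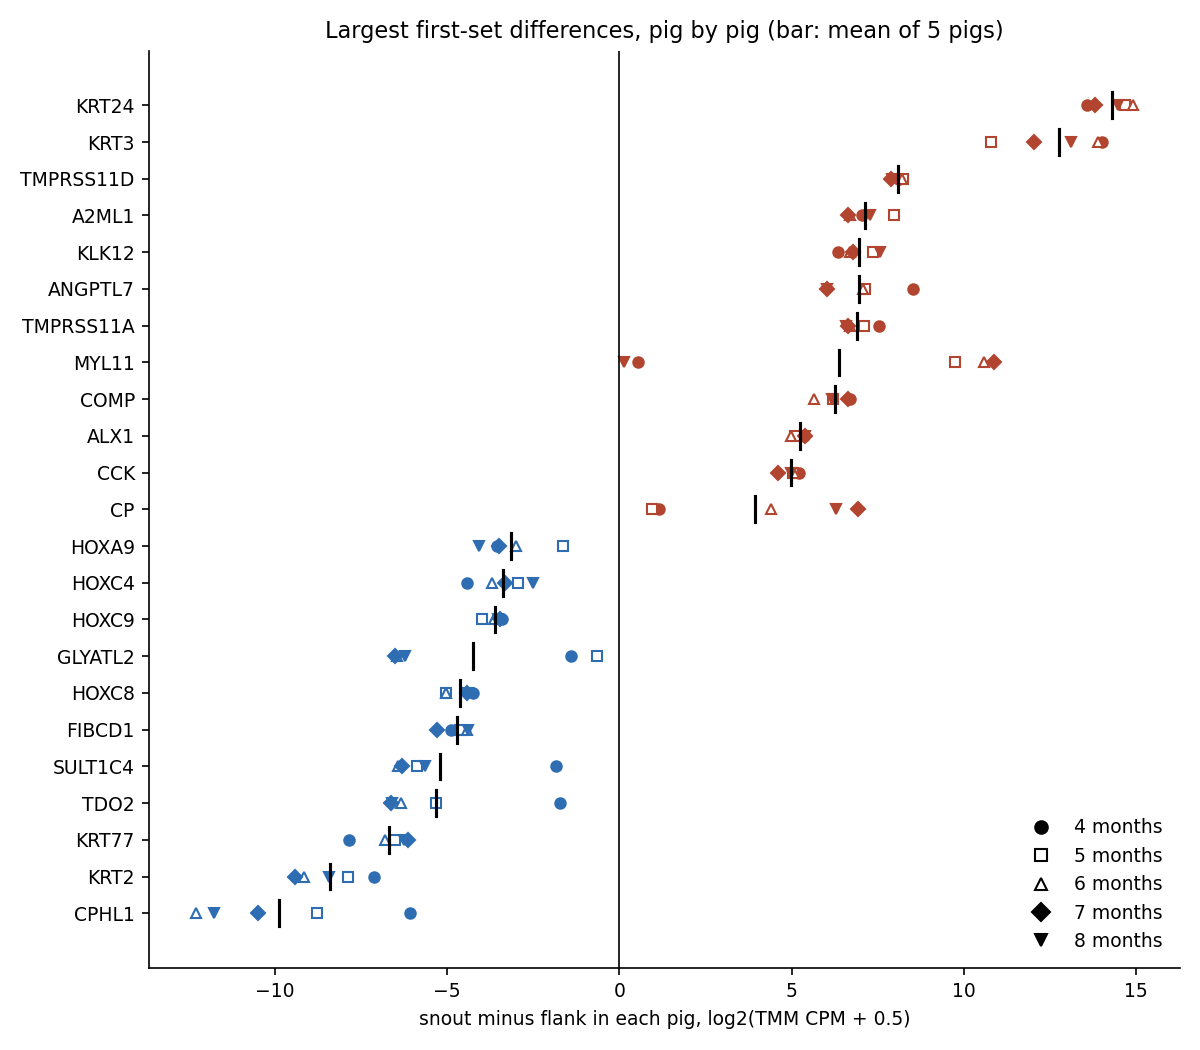
Genes with the largest first-set log2 fold changes in each direction among those that have a symbol and average 5 CPM or more at the higher site (12 higher, 11 lower) are shown by the snout minus flank difference within each pig on the log2(TMM CPM + 0.5) scale; open points are second-set pigs and bars are means of 5 pigs. All points of a gene lie on 1 side of 0, while MYL11, GLYATL2, CP, CPHL1, TDO2 and SULT1C4 spread most between pigs.

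Keratins of the dry epidermis went both ways. Of 11 epidermal keratins tested, 1 was higher and 3 were lower in snout, with a median log2 fold change of -0.56 (1 and 3 without the 7-month snout library). KRT10, the type I keratin of suprabasal epidermis, had 10600, 10400, 19200, 8660 and 14700 CPM in snout and 2560, 1710, 2780, 2700 and 2500 CPM in flank (2.12 ± 0.26, adjusted p = 0.000598). Its usual type II partner KRT1 went the other way, at 3690 to 5540 CPM in snout and 7120 to 13500 CPM in flank (-1.30 ± 0.24, adjusted p = 0.00546). KRT2 (-8.73 ± 1.17, adjusted p = 0.00115) and KRT77, a keratin known from sweat ducts (-7.43 ± 0.86, adjusted p = 0.000515), were lower in snout as well. KRT77 was at 0.325 to 1.21 CPM in snout and 91.2 to 230 CPM in flank. KRT15, a basal and stem cell keratin, overlapped between the sites (130 to 354 CPM in snout, 170 to 408 CPM in flank; -0.41 ± 0.42).

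Of 23 genes of mucosal-type epithelium tested, 13 were higher and 2 lower in snout (12 and 2 without the 7-month snout library), with a median of 1.23. This list holds the markers KRT24 and TMPRSS11D. The lists of epidermal keratins, HOXC genes and facial factors hold the markers KRT2, HOXC8 and ALX1. CRNN, or cornulin, of the esophageal surface, had 292, 692, 360, 481 and 422 CPM in snout and 3.89 to 10.1 CPM in flank (6.05 ± 0.51, adjusted p = 5.78e-05). Every snout library was above every flank library for PRSS27, a membrane serine protease, too, with 27 to 47.1 CPM against 1.04 to 2.85 CPM (4.49 ± 0.38, adjusted p = 5.78e-05). KRT78, a keratin of stratified epithelia, had 114 to 243 CPM in snout and 1.34 to 7.09 CPM in flank (6.23 ± 0.56, adjusted p = 9.57e-05); here and below, members beyond the 4 with the smallest p in a list were chosen after their values were seen. The change was not shared by the whole list. KRT4, the main type II keratin of the mouth lining, overlapped between the sites at 1.05 to 3.66 CPM in snout and 0.976 to 2.77 CPM in flank. The surface protease TMPRSS11F was lower in snout, at 0.962 to 2.81 CPM against 36.7 to 134 CPM (-5.58 ± 0.75, adjusted p = 0.00114), while its relatives TMPRSS11A (7.52 ± 0.65, adjusted p = 7.01e-05) and TMPRSS11D were higher.

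Cornified envelope genes, which build the protein shell of dead surface cells, were higher in snout in 10 of 19 tested and lower in none, with a median of 1.47, and the count was also 10 and 0 without the 7-month snout library. The crosslinking enzyme TGM5 had 309, 205, 213, 187 and 255 CPM in snout and 42.9, 35.4, 44.9, 44.4 and 18.8 CPM in flank (2.82 ± 0.32, adjusted p = 0.00042). TGM3, another transglutaminase, was at 911 to 1130 CPM in snout and 275 to 485 CPM in flank (1.58 ± 0.23, adjusted p = 0.00182). No overlap was seen for the protease inhibitor SERPINB12 (449 to 662 against 84.7 to 181 CPM; 2.42 ± 0.29, adjusted p = 0.000557) or for SBSN, a secreted protein of the cornified layers (1380 to 1760 against 375 to 703 CPM; 1.63 ± 0.21, adjusted p = 0.000877). The envelope precursor IVL did not pass, although its libraries did not overlap (343 to 448 CPM in snout, 74.5 to 219 CPM in flank; 1.79 ± 0.57, adjusted p = 0.0629).

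Genes listed for barrier lipids, with the protease gene ST14 among them, differed less. Of 23 tested, 3 were higher and 1 lower in snout (1 and 0 without the 7-month snout library, 5 and 3 with DESeq2), near the background, with a median of 0.19. The fatty acid elongase ELOVL1 was at 55.8 to 72.8 CPM in snout and 31.6 to 42.2 CPM in flank (0.82 ± 0.15, adjusted p = 0.00671). SULT2B1, a cholesterol sulfotransferase (1.28 ± 0.35, adjusted p = 0.0374), missed the threshold with the pig as block and without the 8- or 7-month snout or the 8- or 7-month flank library (adjusted p up to 0.114). ST14, the protease matriptase (0.59 ± 0.15, adjusted p = 0.0291), did so without the 4- or 7-month snout or the 8-month flank library (up to 0.105). SPTSSB, a small subunit of serine palmitoyltransferase, was at 3.43 to 4.5 CPM in snout and 18.5 to 41.5 CPM in flank; its call (-2.94 ± 0.80, adjusted p = 0.0354) failed without any 1 snout library or without the 4- or 7-month flank library (up to 0.101).

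Surface proteases and their inhibitors were higher in snout in 14 of 29 tested and lower in 1 (12 and 0 without the 7-month snout library), with a median of 1.21. Kallikreins cut the bonds between surface cells so that they shed. KLK12 had 125, 188, 150, 126 and 203 CPM in snout and 1.03, 0.65, 0.971, 0.645 and 0.579 CPM in flank (7.66 ± 0.45, adjusted p = 1.09e-05), and KLK11 had 95.3 to 132 CPM against 4.9 to 23.2 CPM (3.28 ± 0.49, adjusted p = 0.00189). KLK5 did not share this, with 2.62 to 8.31 CPM in snout and 3.16 to 4.9 CPM in flank (0.13 ± 0.46). The inhibitors A2ML1 and SPINK5 were higher too. A2ML1, a broad protease inhibitor, had 360, 503, 317, 229 and 242 CPM in snout and 1.06 to 2.57 CPM in flank (7.35 ± 0.62, adjusted p = 6.08e-05), and SPINK5, which holds kallikreins in check, had 1940 to 3170 CPM against 450 to 1030 CPM (1.98 ± 0.31, adjusted p = 0.00244).

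Desmosome and junction genes, which fasten keratinocytes to each other, were higher in 10 and lower in 3 of 24 tested (9 and 2 without the 7-month snout library), with a median of 0.48. The plaque protein DSP had 15500, 8170, 8140, 11200 and 12900 CPM in snout and 6340, 3190, 5140, 6550 and 4320 CPM in flank (1.20 ± 0.18, adjusted p = 0.00221). DSG1, the desmosomal cadherin of the upper layers, had 5520 to 7420 CPM against 1880 to 3570 CPM (1.17 ± 0.22, adjusted p = 0.00606). A gap junction gene differed in the opposite direction. GJA1 was at 366 to 573 CPM in snout and 1210 to 3090 CPM in flank (-1.93 ± 0.24, adjusted p = 0.000672).

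HOX genes were lower in snout wherever they were called. All 8 HOXA, 6 of 9 HOXB and all 9 HOXC genes in the table were tested and lower in snout, with medians of -7.54, -5.14 and -9.39. Without the 7-month snout library 6, 6 and 8 genes of the clusters were called, and with limma-voom 5, 6 and 9 (HOXD: 2 in both). Most of these genes passed the count filter through flank or foot libraries, so the counts describe and support nothing beyond themselves. Summed over the cluster, HOXA genes had 0.472 to 0.716 CPM in snout and 27.7 to 48.8 CPM in flank, HOXB genes 0.273 to 1.33 CPM and 11 to 16.3 CPM, and HOXC genes 1.03 to 1.68 CPM and 32.2 to 61.1 CPM. HOXC4 and HOXC9 had no count in any snout library. In flank, HOXC9 had 4.85, 7.41, 5.71, 5.05 and 5.18 CPM, at least 296-fold above snout (adjusted p = 1.09e-05). HOXC4 had 10.1, 3.32, 5.94, 4.52 and 2.37 CPM there (at least 299-fold, adjusted p = 0.000394). For HOXC8 the bound was 578-fold (adjusted p = 5.78e-05).

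A few HOX genes kept some level in snout. HOXA5 stood at 0.507, 0.383, 0.443, 0.349 and 0.565 CPM in snout and 22.7, 12.8, 16.9, 23.9 and 18.5 CPM in flank (-5.53 ± 0.58, adjusted p = 0.000233). HOXA7 (-6.08 ± 0.74, adjusted p = 0.000592) and HOXB7 (-3.89 ± 0.47, adjusted p = 0.000592) were below 1 CPM in snout and at 4.28 CPM or more in flank in each pig. HOXA9 had 1.17 to 7.93 CPM in flank and a count in 1 snout library, that of the 5-month pig (0.0319 CPM; at least 367-fold in the first set, adjusted p = 0.0107, 0.132 with limma-voom). HOXC13, which is known for hair shaft differentiation, was at 0.989 to 1.66 CPM in snout and 2.55 to 21.9 CPM in flank. Its call (-2.28 ± 0.55, adjusted p = 0.0218) was lost without any 1 snout library and without the 7-month flank library (adjusted p up to 0.0847).

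In the HOXD cluster 2 of 8 tested genes were lower and none higher, with a median of -1.10, and DESeq2 called 4 lower. Its summed level was 13 to 18.1 CPM in snout and 27.4 to 46.1 CPM in flank, again without overlap. HOXD8 had 11, 11, 10.9, 9.87 and 8.99 CPM in snout and 24.4, 35.2, 19.7, 25.2 and 35.4 CPM in flank (-1.52 ± 0.22, adjusted p = 0.00184). The groups did not overlap. The other call was HOXD1, at 0.035 to 0.136 CPM in snout and 0.227 to 0.613 CPM in flank (-2.37 ± 0.66, adjusted p = 0.0394). HOXD9 overlapped between the sites, at 1.14 to 2.87 CPM in snout and 1.83 to 3.61 CPM in flank (-0.73 ± 0.34, adjusted p = 0.192). Whether the HOXD cluster differed from the other clusters beyond these values was not tested.

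**Figure D3:**
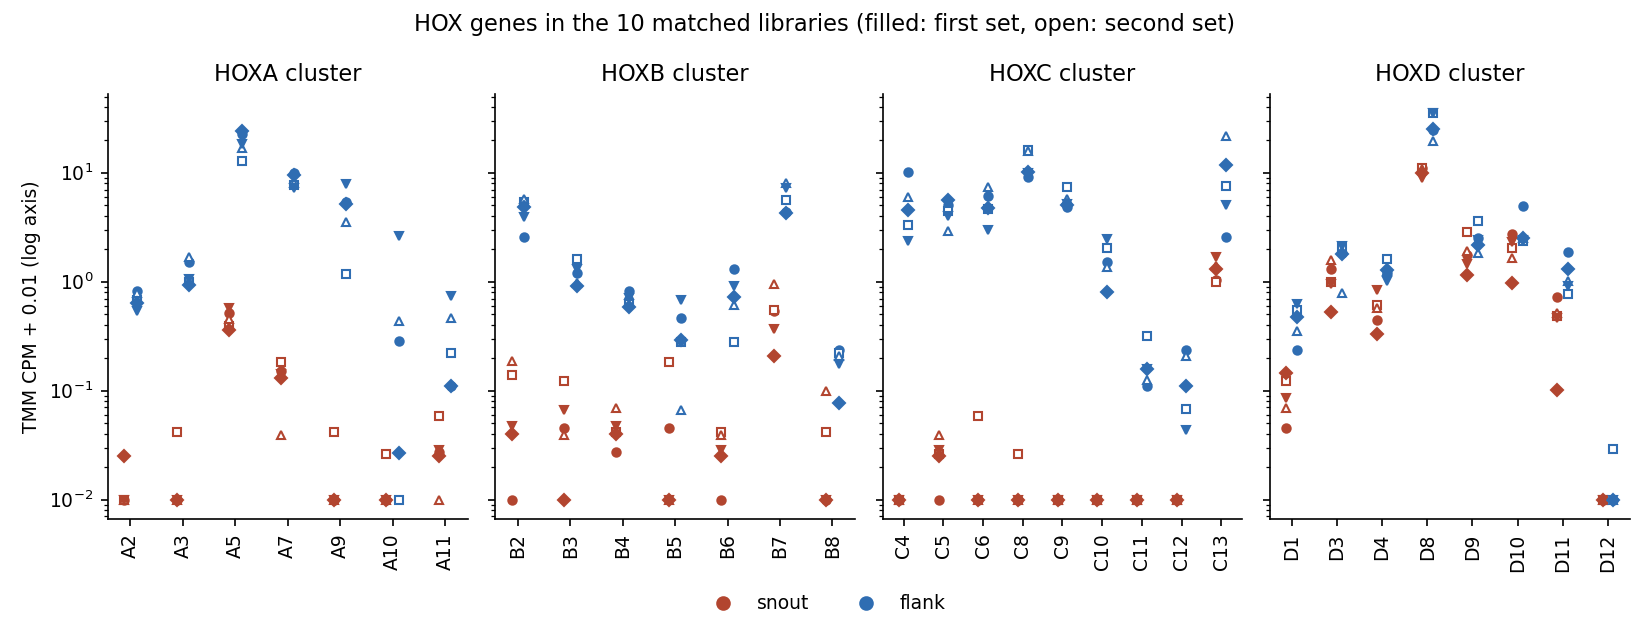
HOX genes of the 4 clusters, 1 of them left out, are plotted as TMM CPM plus 0.01 on a log axis in the 5 snout and 5 flank libraries (shape: pig as in the marker plot, filled: first set, open: second set). In clusters A, B and C nearly all snout points lie below the flank points, down to no count, while HOXD8, HOXD9 and HOXD10 stay near 1 to 11 CPM in snout.

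Transcription factors of the face were higher in snout in 17 of 35 tested and lower in 2 (14 and 3 without the 7-month snout library), with a median of 0.98. ALX1 was at least 1080-fold higher in the first set (adjusted p = 0.00135). MSX1, which patterns face and tooth mesenchyme, had 95.5, 85.3, 79.6, 85.8 and 59.4 CPM in snout and 2.02, 3.46, 2.86, 3.18 and 3.77 CPM in flank (4.73 ± 0.30, adjusted p = 1.68e-05). LMX1B, a LIM homeobox factor of dorsal limb and head mesenchyme, had 14.5 to 24 CPM against 1.39 to 4.61 CPM (3.21 ± 0.29, adjusted p = 9.57e-05). FOXF2, a forkhead factor of head mesenchyme, did not overlap either. It was at 2.6 to 6.62 CPM in snout and 0.281 to 0.535 CPM in flank (3.66 ± 0.33, adjusted p = 9.57e-05). PAX3, of neural crest and muscle precursors, was at 4.58 to 7.83 CPM against 0.0505 to 0.712 CPM (3.76 ± 0.75, adjusted p = 0.00913). In the 4- and 8-month snout libraries, with low muscle sums, it was at 5.88 and 4.58 CPM. The part of muscle in its level was not tested.

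Not every factor of the list was on the snout side. OSR2, which is known from palate growth, was lower in snout, at 1.91 to 6.38 CPM against 7.28 to 11.5 CPM (-2.16 ± 0.28, adjusted p = 0.000879), as was TWIST2, a dermal factor (3.39 to 8.07 against 8.8 to 18.1 CPM; -1.30 ± 0.21, adjusted p = 0.0032). Of 20 trunk and limb factors tested, 1 was higher and 4 were lower in snout, with a median of -0.84 (1 and 3 without the 7-month snout library, 1 and 8 with DESeq2). TBX5, the forelimb factor, had 3.26, 3.63, 1.77, 3.92 and 5.78 CPM in flank and at most 0.0188 CPM in snout (adjusted p = 5.78e-05). TBX3 was the factor higher in snout, at 32.1 to 59.5 CPM against 7.4 to 15 CPM (2.05 ± 0.25, adjusted p = 0.000621). SP6, a zinc finger factor of skin appendages, was lower (-1.85 ± 0.35, adjusted p = 0.00638), with 5.37 to 8.52 CPM against 16.1 to 40 CPM. The homeobox factors EMX2 (-1.56 ± 0.44, adjusted p = 0.0396) and MEIS1 (-0.84 ± 0.24, adjusted p = 0.0461) lost their calls on leaving out any of 5 first-set libraries (all but the 7-month snout library for EMX2, all but the 7-month flank library for MEIS1; adjusted p up to 0.124 and 0.144).

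Hair genes had medians below 0, and how many passed depended on the tool, as it did over all genes. Of 14 hair shaft genes tested, none was higher and 1 lower, with a median of -2.45 (1 higher and 4 lower with the pig as block, 0 and 4 with DESeq2, 0 and 0 without the 7-month snout library). Of 14 genes of the inner root sheath and companion layer, none was higher and 3 were lower, with a median of -2.21 (5 lower with the pig as block, 9 with DESeq2, 1 without the 7-month snout library). KRT25, a keratin of the inner root sheath, had 116, 233, 398, 342 and 393 CPM in snout and 138, 2540, 6260, 2850 and 1430 CPM in flank (-2.38 ± 0.96, adjusted p = 0.134). The 4-month flank library was as low as a snout library. GATA3, a root sheath and epidermal factor, kept its call in every alternative within the first set, at 7.67 to 9.66 CPM in snout and 51.3 to 157 CPM in flank (-3.43 ± 0.42, adjusted p = 0.000598). KRTAP11-1, a hair shaft matrix protein, had 8.67 to 37.9 CPM in snout and 67.7 to 1410 CPM in flank (-3.72 ± 1.00, adjusted p = 0.0348), DSG4, a hair cadherin, 6.03 to 23.2 and 26 to 353 CPM (-2.98 ± 0.78, adjusted p = 0.0311), and LIPH, a lipase of the root sheath, 2.2 to 4.94 and 7.57 to 23.9 CPM (-2.02 ± 0.50, adjusted p = 0.0238). Those of KRTAP11-1 and DSG4 were lost without any 1 snout library and without the 8- or 7-month flank library (up to 0.1 and 0.102), and that of LIPH without the 4- or 7-month snout or the 4-month flank library (up to 0.12).

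Among 29 hair follicle regulators tested, 2 (LGR6 and DLX3) were higher and 4 (LGR5, CD34, FOXC1 and HOXC13) lower in snout (median 0.07; 1 and 3 without the 7-month snout library). The share called higher (6.9%) was near the background and the share called lower (13.8%) above it. LGR5, a marker of follicle stem cells, had 1.7, 3.94, 3.95, 2.58 and 4.92 CPM in snout and 10.7, 11.5, 15.9, 14 and 10.5 CPM in flank (-1.95 ± 0.36, adjusted p = 0.0094). Its relative LGR6 was on the other side, at 10.6 to 30 CPM against 6.4 to 9.43 CPM (1.41 ± 0.36, adjusted p = 0.0285), a call lost without the 4-month snout or the 8- or 7-month flank library (up to 0.103). The homeobox factor DLX3 overlapped in 5 against 5 and lost its call (0.93 ± 0.26, adjusted p = 0.0398) in 10 of 18 alternatives, among them the pig block, upper-quartile scaling and every left-out library but the 7-month flank library (up to 0.133). Sebaceous lipid genes gave 2 higher and 1 lower of 31 (median -0.21; 2 and 0 without the 7-month snout library, 3 and 3 with DESeq2). Both shares (6.45% and 3.23%) were below the background. FAR2, which makes wax alcohols, had 9.01 to 22 CPM in snout and 1.77 to 3.36 CPM in flank (2.50 ± 0.37, adjusted p = 0.00186), and IDI1, of sterol synthesis, 95.3 to 163 CPM and 33.5 to 66.6 CPM (1.15 ± 0.23, adjusted p = 0.00832). PLIN2, a lipid droplet coat protein, was at 60.4 to 103 CPM in snout and 119 to 346 CPM in flank; its call (-0.61 ± 0.17, adjusted p = 0.0432) failed with the pig as block and without each first-set library but the 8-month flank library (up to 0.152).

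Gland genes went both ways: of 29 tested, 8 were higher and 4 lower in snout (8 and 3 without the 7-month snout library), with a median of 0.61. Genes for salt and water transport were among the higher ones. The sodium channel subunits SCNN1A, with 117, 93.3, 86.9, 90.3 and 80.7 CPM in snout and 24.2, 9.61, 13.7, 14.3 and 9.12 CPM in flank (2.59 ± 0.32, adjusted p = 0.000592), and SCNN1G (2.43 ± 0.31, adjusted p = 0.000726) did not overlap. SLC12A2, the chloride cotransporter of secretory cells, had 103 to 224 CPM against 57.9 to 72.1 CPM (1.40 ± 0.25, adjusted p = 0.00454). BEST2, a chloride channel of sweat glands, had 52.2, 11.2, 14.2, 26.1 and 21.7 CPM against 0.48 to 3.8 CPM (4.47 ± 0.79, adjusted p = 0.00466), and the water channel AQP5 44.5 to 106 CPM against 2.25 to 29.7 CPM (3.04 ± 0.71, adjusted p = 0.0189). KRT77, the duct keratin given above, and ESR1, the estrogen receptor (3.17 to 7.49 against 12.9 to 36.3 CPM; -1.84 ± 0.41, adjusted p = 0.0159), were lower.

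Touch and nerve genes were a smaller group. Of 16 Merkel cell and touch genes tested, 5 (CCK, KRT20, ISL1, TAC1 and PCSK1) were higher and none lower in snout, with a median of 2.01 (5 and 0 without the 7-month snout library). CCK, a gut and brain peptide, had 20.9, 17.3, 22.9, 17 and 20.5 CPM in snout and 0.0382 to 0.215 CPM in flank (6.92 ± 0.92, adjusted p = 0.00102). The Merkel keratin KRT20 had 9.44, 7.56, 3.28, 4.52 and 4.32 CPM in snout and 0.414 to 1.59 CPM in flank (2.61 ± 0.56, adjusted p = 0.013), and the factor ISL1 6.05, 6.05, 7.32, 6.72 and 1.17 CPM against at most 0.227 CPM (5.48 ± 0.82, adjusted p = 0.00198). ATOH1, the factor that specifies Merkel cells, did not overlap (0.999 to 3.81 against 0 to 0.656 CPM) and did not pass (3.00 ± 1.07, adjusted p = 0.0911). The touch channel PIEZO2 did overlap, at 10.6 to 19.7 CPM and 13 to 29.1 CPM. Of 16 Schwann cell and nerve genes, 3 (PRX and SOX10 among them) were higher and 1 lower (1 and 0 without the 7-month snout library, 5 and 1 with DESeq2; median 0.16). PRX, a gene of peripheral myelin, had 8.2 to 15 CPM in snout and 4.14 to 5.5 CPM in flank (1.03 ± 0.25, adjusted p = 0.0228) and lost its call without the 8- or 7-month library of either site (up to 0.0906), and EGR2, a myelin factor (-1.95 ± 0.50, adjusted p = 0.0279), without any first-set library but the 7-month flank library (up to 0.179).

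Matrix genes differed by group. Of 30 collagens tested, 4 were higher and 5 lower in snout, with a median of -0.36 (3 and 2 without the 7-month snout library, 4 and 10 with the pig as block and with DESeq2). The summed collagen level was 29800 to 61100 CPM in snout and 117000 to 258000 CPM in flank, so no snout library reached a flank library. COL3A1, of the pliable dermis, had 16700, 25800, 15000, 14100 and 10700 CPM in snout and 64900, 102000, 49400, 52500 and 70200 CPM in flank (-2.18 ± 0.44, adjusted p = 0.00936). COL1A2, a chain of the main dermal collagen, had 7770 to 17700 CPM against 38000 to 94800 CPM; its call (-2.19 ± 0.50, adjusted p = 0.0162) was lost without the 8- or 7-month snout library (up to 0.064). The transmembrane collagen COL13A1 (7.54 to 14.5 against 2.07 to 4.24 CPM; 1.78 ± 0.35, adjusted p = 0.00811) and the nerve-associated COL28A1 (8.89 to 20.4 against 1.46 to 3.61 CPM; 2.26 ± 0.50, adjusted p = 0.0143) were higher in snout.

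Tendon, cartilage and bone matrix genes were higher in snout in 13 of 24 tested and lower in 3 (8 and 3 without the 7-month snout library), with a median of 2.29. THBS4, a thrombospondin of tendon and muscle attachments, had 1200, 1180, 821, 692 and 637 CPM in snout and 14, 12.4, 13.5, 7.06 and 7.65 CPM in flank (6.45 ± 0.60, adjusted p = 0.000124). MKX, a tendon transcription factor, was at 20.6 to 36.1 CPM against 4.09 to 10.8 CPM (2.50 ± 0.25, adjusted p = 0.000178), and FMOD, a collagen-binding proteoglycan, at 251 to 424 CPM against 25.2 to 105 CPM (2.56 ± 0.46, adjusted p = 0.00532). In the 2 snout libraries with low muscle sums, THBS4 was at 1200 CPM (4 months) and 637 CPM (8 months), both above every flank library. COL2A1, the cartilage collagen, was higher in snout too, at 2.18 to 7.04 CPM against at most 0.457 CPM in flank (5.38 ± 1.13, adjusted p = 0.0116). Among 30 elastic fibre and proteoglycan genes, 1 was higher and 4 were lower (1 and 4 without the 7-month snout library; median -0.56). BGN was the higher one, at 132 to 248 CPM against 22.5 to 74.1 CPM (1.90 ± 0.42, adjusted p = 0.0148), and its relatives DCN (1180 to 2860 against 3170 to 7840 CPM; -1.48 ± 0.31, adjusted p = 0.0118) and OMD (76.4 to 196 against 315 to 624 CPM; -1.95 ± 0.41, adjusted p = 0.0117), also small proteoglycans, were lower, with LUM and ECM2 (-1.51 ± 0.32, adjusted p = 0.0122).

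Among smooth muscle and fat genes most calls were on the flank side. Of 16 smooth muscle and pericyte genes tested, none was higher and 7 were lower, with a median of -0.77 (4 lower without the 7-month snout library). ACTG2, a smooth muscle actin, had 9.99, 4.63, 5.93, 6.73 and 2.77 CPM in snout and 70.6, 137, 110, 45.5 and 204 CPM in flank (-4.06 ± 0.83, adjusted p = 0.0107). The myosin MYH11 had 40.8 to 74.3 CPM against 181 to 797 CPM (-3.03 ± 0.63, adjusted p = 0.0116). ACTA2 (-1.99 ± 0.44, adjusted p = 0.0143) and CNN1 (-3.06 ± 0.70, adjusted p = 0.017), both of contractile cells, did not overlap either, and lost their calls without the 4- or 8-month snout library (up to 0.0621 and 0.0846). Of 16 adipocyte genes, 1 was higher and 5 were lower (0 and 2 without the 7-month snout library, 1 and 9 with DESeq2), with a median of -2.54. CEBPA, a factor of fat cell and sebocyte maturation, had 10.9, 25.5, 23.1, 16.7 and 11.1 CPM in snout and 57.4, 71, 49.2, 36.7 and 43.9 CPM in flank (-1.84 ± 0.22, adjusted p = 0.000598). The fat-specific ADIPOQ overlapped and did not pass, at 21 to 137 CPM and 48 to 1420 CPM (-2.75 ± 1.18, adjusted p = 0.155). Calls for PNPLA2 (-0.79 ± 0.18, adjusted p = 0.0165), GPAM (-0.87 ± 0.21, adjusted p = 0.023) and AGPAT2 (1.42 ± 0.37, adjusted p = 0.0283), which break down or build triglyceride, were each lost without 2 or more of the first-set libraries (up to 0.142, 0.106 and 0.0809): the 4- and 8-month snout libraries for PNPLA2, the 4- and 7-month snout and 4-month flank libraries for GPAM, and the 8- and 7-month snout and 4- and 8-month flank libraries for AGPAT2.

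Skeletal muscle genes were higher in 11 of 27 tested and lower in none, with a median of 6.43, but this depended on single libraries. Without the 7-month snout library 1 was higher and 2 lower, with the pig as block 2 and 0, and without the 7-month flank library 0 and 0. CASQ1, a calcium-binding protein of fast muscle, had 2.19, 72.3, 120, 115 and 2.56 CPM in snout and 0.555 to 2.5 CPM in flank (5.88 ± 1.42, adjusted p = 0.0226). Its call was lost with the pig as block and without any 1 flank library (up to 0.247), but was kept without the 7-month snout library. Of glycolysis genes 3 of 19 were higher and none lower (2 and 1 without the 7-month snout library, 5 and 2 with DESeq2), with a median of 0.17. PFKM, the muscle form of phosphofructokinase, was highest in the muscle-carrying snout libraries (136, 160 and 189 CPM, against 71.7 and 73.6 CPM in the other 2; 34.9 to 55.7 CPM in flank; 1.22 ± 0.32, adjusted p = 0.0301; lost without the 8- or 7-month flank library, up to 0.174). GAPDH moved in the same libraries (2100, 2780 and 2800 CPM against 1700 and 1480 CPM; 876 to 1400 CPM in flank), and its call (0.85 ± 0.25, adjusted p = 0.0488) was lost in 12 of 18 alternatives, among them the pig block and every left-out library but the 8-month snout library (up to 0.17). HK1, the hexokinase of most tissues, was not highest there (276, 194, 168, 218 and 255 CPM in snout, 115 to 163 CPM in flank; 0.81 ± 0.15, adjusted p = 0.00645). The part of muscle RNA in these counts was not tested beyond the left-out libraries.

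**Figure D4:**
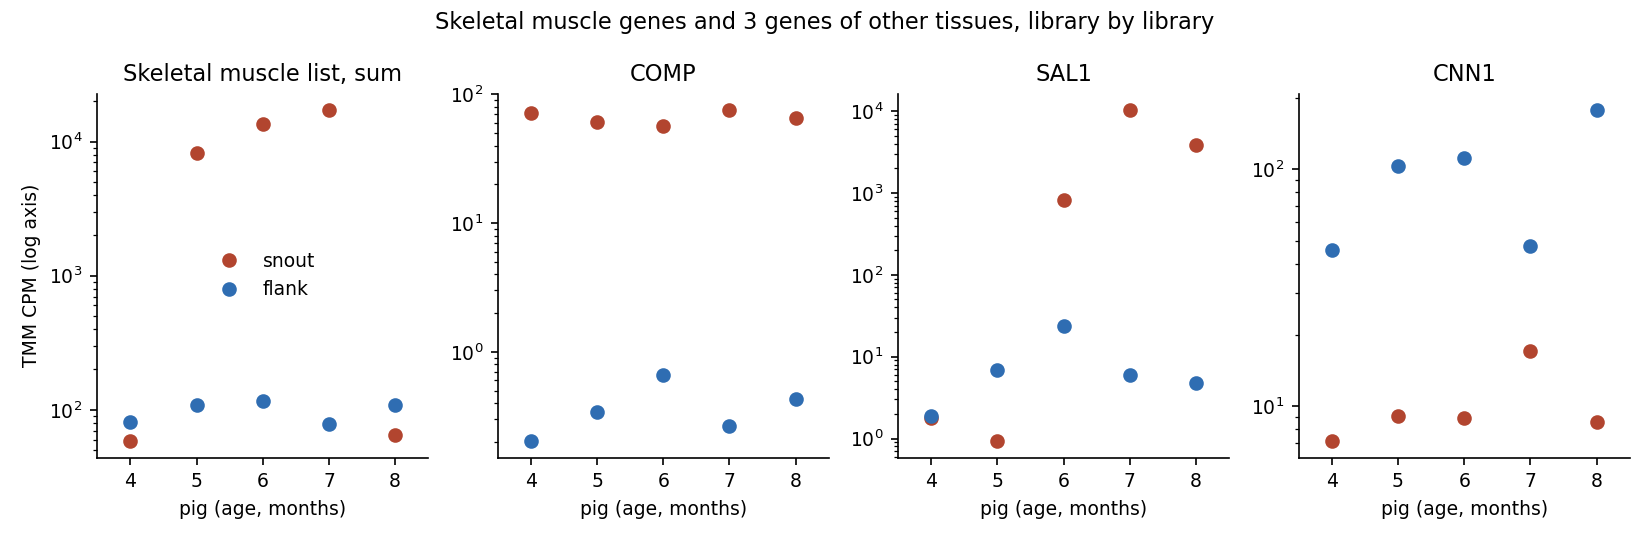
The summed CPM of the skeletal muscle list and the CPM of COMP (cartilage and tendon), SAL1 (glands) and CNN1 (smooth muscle) are plotted on log axes for the snout and flank library of each pig. Muscle genes were high in the snout libraries of the 5-, 6- and 7-month pigs, COMP was high and CNN1 low in all 5 snout libraries, and SAL1 was high in those of the 6-, 7- and 8-month pigs.

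Macrophage, lymphocyte and endothelial genes gave few calls. The lists of mast cell and granulocyte genes and of antimicrobial and alarmin genes each had 25% higher and 12.5% lower, above the background. None of 14 macrophage and dendritic cell genes passed (1 at an unadjusted p under 0.05; DESeq2 called 1, limma-voom 0). Of 14 lymphocyte genes 1 (CD3D), and of 18 endothelial genes 1, was lower in snout, and none was higher. Without the 7-month snout library these were 0 and 1, and macrophage genes again gave 0; DESeq2 called 2 lymphocyte genes lower. The endothelial gene was PDPN, a lymphatic and stromal glycoprotein, at 1.96 to 4.63 CPM in snout and 4.3 to 10.5 CPM in flank (-1.73 ± 0.36, adjusted p = 0.0107), where the groups overlapped. Of 8 mast cell and granulocyte genes 2 were higher and 1 lower (2 and 0 without the 7-month snout library), and of 16 antimicrobial and alarmin genes 4 were higher and 2 lower (2 and 1 without the 7-month snout library, 6 and 4 with DESeq2), PGLYRP1 and CXCL8 being the members not described below. The calcium-binding alarmins S100A8 and S100A12 are in both lists. S100A12 had 155, 752, 506, 393 and 78.7 CPM in snout and 2.5 to 16.3 CPM in flank (5.36 ± 0.69, adjusted p = 0.000877), and S100A8 58.1, 397, 189, 204 and 38 CPM against 0.707 to 8.22 CPM (5.72 ± 0.87, adjusted p = 0.0023). Both were highest in the 3 snout libraries that also carried muscle RNA, and CSF3R, the granulocyte growth factor receptor in the same list, did not pass (0.148 to 1.01 CPM in snout, 0.347 to 3.38 CPM in flank; -1.19 ± 0.70, adjusted p = 0.299). The part of granulocytes or muscle in these values was not tested. RNASE4, a secreted ribonuclease, was lower in snout (90.7 to 111 against 159 to 238 CPM; -1.18 ± 0.22, adjusted p = 0.0059). WFDC2, a secreted gland protein, passed at 4.30 ± 1.17 (adjusted p = 0.0347) and FCER1A, of mast cells, at -1.38 ± 0.39 (adjusted p = 0.0424); both overlapped in 5 against 5. FCER1A lost its call without any 1 first-set library (up to 0.126), and WFDC2 without any but the 4-month snout library (up to 0.259).

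Of 8 melanocyte genes, 1 (SOX10, shared with the Schwann list) was higher and 1 lower in snout (0 and 1 without the 7-month snout library). MITF, the master factor of pigment cells that is made in other cells as well, had 27.3, 32, 29.5, 22.5 and 24.5 CPM in snout and 74.7, 70.6, 79.8, 55.3 and 61.8 CPM in flank (-1.38 ± 0.14, adjusted p = 0.000194). The pigment enzyme gene TYRP1 overlapped between the sites, at 0.542 to 1.66 CPM and 0.554 to 1.59 CPM. Cell cycle genes gave no call in 25 tested (1 at an unadjusted p under 0.05; DESeq2 called 1, limma-voom 0; 0 without the 7-month snout library), with a median of 0.13. TOP2A, which is made by dividing cells, was at 69.4 to 98.7 CPM in snout and 39.6 to 98.1 CPM in flank.

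Signalling genes were called in both directions. Shares called higher in the WNT (8.51%) and the BMP and TGF-beta list (9.62%) were near the background of 7.77%. Shares called lower (14.9% and 11.5%) were above its 5.46%. Among 47 genes of the WNT pathway, 4 (WNT5A, WNT2B, DKK3 and SFRP2) were higher and 7 (WNT3, WNT16, KREMEN2, WNT5B, FZD7, SOST and AXIN2) lower (2 and 5 without the 7-month snout library; median 0.16). The ligand WNT5A had 60, 61.1, 47.1, 40.7 and 43.8 CPM in snout and 14.4, 18.7, 20.1, 13.7 and 12.6 CPM in flank (1.82 ± 0.15, adjusted p = 5.78e-05). The ligands WNT16 (6.22 to 13.4 against 28.7 to 84.6 CPM; -2.49 ± 0.24, adjusted p = 0.000156) and WNT3 (10.7 to 18.1 against 40 to 140 CPM; -2.60 ± 0.36, adjusted p = 0.00118) were lower, as was KREMEN2, a receptor for the inhibitor DKK1 (-1.80 ± 0.32, adjusted p = 0.00466). DKK1 itself was below 1 CPM in all 10 libraries (1.47 ± 0.61, adjusted p = 0.141). Of 52 BMP and TGF-beta genes, 5 (GDF6, GDF7, ACVR1, SMAD2 and TWSG1) were higher and 6 (BMP3, ACVR2A, ID4, GREM1 and NBL1 among them) lower, with counts of 5 and 6 also without the 7-month snout library (median 0.00). BMP3, an inhibitory ligand, had 3.38, 2.22, 1.3, 2 and 2.43 CPM in snout and 42.8, 23.6, 22.3, 59.5 and 34.5 CPM in flank (-4.14 ± 0.31, adjusted p = 3.31e-05). The BMP antagonist GREM1 had 5.79, 19.6, 7.61, 6.95 and 5.16 CPM in snout and 23 to 42.3 CPM in flank (-2.44 ± 0.23, adjusted p = 0.000133), the 5-month snout library being the nearest to flank. The receptor ACVR2A (-1.39 ± 0.22, adjusted p = 0.00253) and the target gene ID4 (-1.29 ± 0.22, adjusted p = 0.00419) were lower as well.

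Of 21 FGF genes, 1 was higher and 1 lower, below the background share of calls (0 and 1 without the 7-month snout library, 1 and 2 with DESeq2). FGFR3, a receptor of the epidermis, was at 310 to 620 CPM in snout and 164 to 324 CPM in flank (0.87 ± 0.25, adjusted p = 0.0405) and lost its call with upper-quartile scaling and without any 1 first-set library but the 7-month flank library (up to 0.14). ETV5, an FGF target, was at 9.54 to 12.3 CPM against 16.2 to 24.4 CPM (-0.88 ± 0.22, adjusted p = 0.0272) and lost its call without the 4- or 8-month snout or the 4- or 7-month flank library (up to 0.0893). Of 20 retinoic acid genes, 2 were higher and none lower (median -0.01), with the 7-month snout library in or out. FABP5, which carries fatty and retinoic acids in keratinocytes, had 2070, 1910, 2160, 2130 and 2080 CPM in snout and 303, 226, 348, 347 and 257 CPM in flank (2.79 ± 0.18, adjusted p = 1.79e-05), and the snout libraries lay close together. ALDH1A2, which makes retinoic acid, had 5.37 to 14.1 CPM against 0.883 to 2.9 CPM (2.36 ± 0.49, adjusted p = 0.0112).

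**Figure D5:**
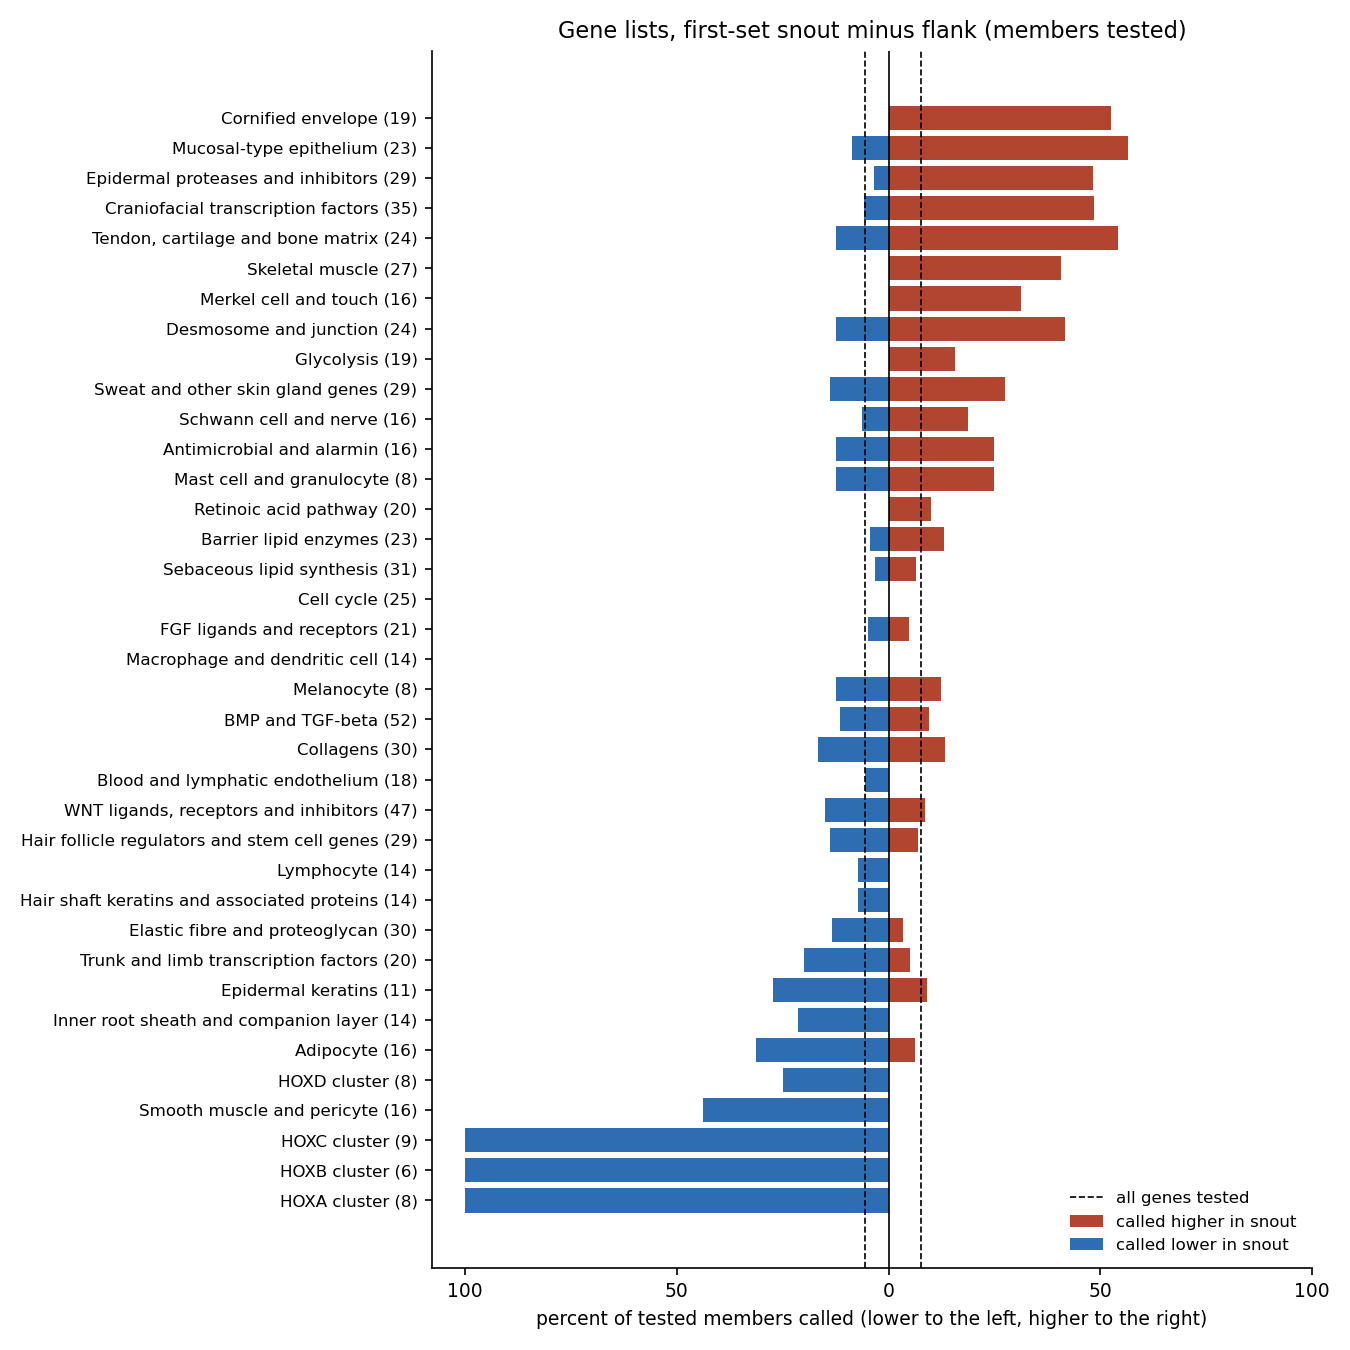
Bars give the percent of tested members of each list called higher (right) or lower (left) in snout in the first set, with the number tested in brackets and dashed lines at 7.77% and 5.46%, the shares over all genes tested. HOXA, HOXB and HOXC reach 100% lower, and mucosal-type epithelium (56.5%), tendon matrix (54.2%) and cornified envelope (52.6%) have the largest shares called higher among the lists drawn. The 5 markers are counted in the lists that hold them.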

How the data were processed

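RNA came from punches kept in RNAlater, by a Qiagen kit for fibrous tissue, and went into TruSeq stranded mRNA libraries, per the labels' protocols. The deposited table holds the authors' estimated counts per gene, and the submitters' processing notes name Salmon. The version, genome build and annotation were not given in the sources used here. Among all values 42.2% were not whole (tolerance 0.000000001) and were rounded before testing. Of 19280 gene identifiers, 14821 had a symbol in the table of gene names used.

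Genes were kept by filterByExpr (minimum count 10, total 15) and tested in R 4.3.3 with edgeR 4.0.16 (TMM scaling, robust quasi-likelihood F test, Benjamini-Hochberg adjusted p under 0.05) on the 12 first-set libraries. Unless an alternative is named, p-values and log2 fold changes come from that fit. The SE was taken as the absolute log2 fold change divided by the square root of the F statistic. It is therefore approximate, above all for genes with few or no counts at 1 site. CPM were computed over the 10 libraries with TMM factors of 0.904 to 1.081, except that values in the other 10 libraries were scaled over all 20. Differences within a pig used log2(CPM + 0.5). Where a site had no count in the first set, the fold was set against 3 counts over that site's libraries.

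Members and gene lists were chosen with earlier results of these data known. Genes eligible to be named were called, had a symbol, averaged 5 CPM or more at the site where they were higher, and kept their sign in all 3 first-set pigs; of these, the 12 largest in each direction and up to 4 members of each of 38 lists with the smallest adjusted p were named, besides the 5 markers. Snout and flank libraries of 1 pig come from the same animal, per the labels; their deviations from the group means correlated at 0.38, -0.01 and 0.09, against -0.26 to 0.19 between pigs. Each animal gave 1 library a site. No 2 libraries were copies (highest correlation 0.992).

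Alternatives were DESeq2 1.42.0, limma-voom (limma 3.58.1), other scalings, count filters and pseudocounts, the pig as a block, fewer libraries, each library left out and the labels as deposited. On simulated data for this comparison (15302 genes), 84 of 100 genes changed 4-fold and 38 of 100 changed 2-fold were recovered, with 1 false call. The simulated counts were independent, with no pig effect and no muscle-carrying library, and far fewer genes were changed than were called in the data. These rates therefore need not hold for the data. No promoter or protein sequence was used. Some named genes are not reported here.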

Additional observations from a re-analysis of the deposited data

Results flagged for a closer look

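Over 226 groups of 5 libraries (each named gene at each site), 12 values stood apart from the other 4 of their group, with a gap of over 0.71 of the group's range. For normally distributed values, chance sets apart about 1 in 20 such groups. That rate cannot be applied strictly here, because groups with 0 in all libraries are among the 226 but cannot be set apart. A group with a single value above 0 is set apart by construction, as HOXC8 and HOXA9 in snout were. The 12 values are therefore descriptions. In the 4-month pig, ANGPTL7 was at 438 CPM in snout against 66.2 to 112 CPM in the others. That pig's flank library had TDO2 at 1.16 CPM against 19.3 to 49, SULT1C4 at 1.34 CPM against 24.7 to 45.1 and MEIS1 at 38.1 CPM against 22.6 to 24.1. In the 5-month pig, snout held HOXC8 at 0.016 CPM and HOXA9 at 0.0319 CPM where the other snout libraries had 0, and GREM1 at 19.6 CPM against 5.16 to 7.61; its flank library held KRT10 at 1710 CPM against 2500 to 2780. PLIN2 was at 346 CPM in the 6-month flank library against 119 to 157 CPM. The 7-month snout library had SBSN at 1380 CPM against 1660 to 1760 and CNN1 at 17.1 CPM against 7.12 to 9.11. TGM5 was at 18.8 CPM in the 8-month flank library against 35.4 to 44.9 CPM.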

How the results depend on the processing

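Of 113 named genes, 66 kept their call under each of the alternatives run within the first set (up to 18) and 47 lost it in 1 or more. The first-set count of 2024 genes (1189 higher, 835 lower) was 1096 (624 and 472) with the 6 snout and flank libraries only, 1212 (629 and 583) at a log2 fold change of at least 1, 3035 (1659 and 1376) with DESeq2, 2096 with limma-voom and 1937 with upper-quartile scaling. With the pig as a replicate block it was 2600 (1513 and 1087) over 12 libraries, where SULT2B1, DLX3, PLIN2, CASQ1 and GAPDH were the named genes that lost their call, and 730 (413 and 317) over 6 libraries. Many more named genes lost their call over those 6 libraries. Among them were KRT1, DSP, DSG1, ELOVL1, LGR5, SLC12A2, ACTG2, MYH11, PDPN, ECM2 and ALDH1A2, given above without a lost call. The edgeR adjusted p was 0.0517 for ECM2 and 0.105 for PDPN there. Leaving out 1 library gave 1263 to 1757 calls, 853 to 1001 higher and 389 to 756 lower; calls were fewest without the 8-month snout library (1263), then the 4-month (1318) and 7-month (1408) ones, and 58.7% of calls were higher against 69.2% without the 8-month snout library. Why was not tested.

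With the 20 libraries grouped by their labels as deposited, 0 genes were called in edgeR (0 higher, 0 lower; lowest adjusted p 0.148; 1782 at an unadjusted p under 0.05; DESeq2 was not run on that grouping). The sign of 29 named genes then changed: A2ML1 (-2.60), KRT10 (-2.23), TGM5 (-1.24), SERPINB12 (-2.73), SBSN (-0.45), TGM3 (-1.15), ELOVL1 (-0.57), ST14 (-0.31), SULT2B1 (-0.22), DSP (-0.53), DSG1 (-0.74), HOXC13 (0.32), KRTAP11-1 (1.04), DSG4 (1.05), LGR5 (1.43), DLX3 (-0.65), PLIN2 (0.28), SCNN1A (-0.05), EGR2 (0.52), AGPAT2 (-0.31), S100A12 (-5.43), S100A8 (-5.70), FCER1A (0.00), FABP5 (-0.15), KLK11 (-1.0), SPINK5 (-0.71), ETV5 (0.27), HK1 (-0.28) and GAPDH (-0.08), each as log2 fold change snout minus flank.

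The mean differences over 5 pigs moved with the pseudocount by its construction: with 0.1 and 1 CPM they were 10.21 and 7.10 for TMPRSS11D, 15.67 and 13.51 for KRT24, 7.16 and 4.35 for ALX1, and -6.86 and -3.68 for HOXC8. Members of lists beyond the named genes were not followed through each left-out library. With 3 animals a site, a missed threshold does not show that sites are alike.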

Other observations

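A small group of genes, some of them secreted carriers, varied widely between snout libraries. SAL1, or salivary lipocalin, a carrier of scent molecules in pigs, had 1.78, 0.925, 819, 10300 and 3840 CPM in the snout libraries of the 4-, 5-, 6-, 7- and 8-month pigs and 1.87, 6.8, 23.5, 5.89 and 4.72 CPM in flank. PHEROC had 0.245, 0.016, 32.7, 813 and 218 CPM in snout and 0.656, 56.1, 129, 171 and 32.1 CPM in flank. SCGB1D1, a secretoglobin, had 0.367, 0.191, 30.9, 409 and 137 CPM in snout and 0.303, 68.6, 232, 105 and 89.1 CPM in flank. WFDC2 had 0.28, 0.447, 9.5, 14.4 and 7.9 CPM in snout. The gene ENSSSCG00000012095, which had no symbol, had 1.71, 0.0798, 890, 21500 and 5310 CPM in snout and at most 0.116 CPM in flank. These were the 5 genes at least 8 times higher (CPM + 0.5) in each snout library of the 6-, 7- and 8-month pigs than in both of the others, and 1 gene showed the reverse. The split was chosen after the values were seen and has no test. It is not that of the muscle genes, which were high in the 5-, 6- and 7-month snout libraries. Age, animal and exact place of the punch cannot be told apart here.

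Among first-set calls, 5 higher and 2 lower genes had the opposite sign in both second-set pigs, some by small differences. TRPM8, the cold-sensing channel, had 2.02, 0.976 and 1.26 CPM in flank of the 4-, 7- and 8-month pigs but 0.0955 and 0.0571 CPM in those of the 5- and 6-month pigs, both labelled dorsal. Snout held 0.0377 to 0.148 CPM in all 5 (first-set log2 fold change -4.46 ± 0.62, edgeR adjusted p = 0.00135).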
